A study of Mus musculus with 16 samples.

Results

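The insulin-like growth factor (IGF) family described here consists of 10 genes: the ligands *Igf1* and *Igf2*, the receptors *Igf1r* and *Igf2r*, and the binding proteins *Igfbp2*, *Igfbp3*, *Igfbp4*, *Igfbp5*, *Igfbp6* and *Igfbp7*. They were taken by symbol from a count table of 54838 gene identifiers, and each symbol was found. RNA was sequenced from spleens of C57BL/6 mice in 8 samples called size-selected and 8 samples of whole spleen. Both groups carry the same 8 numbers, 4 of them male (407, 408, 427 and 435) and 4 female (436, 445, 447 and 460). The study asked which genes are enriched in spleen glia, the supporting cells of nerve fibres, relative to the whole organ. The size-selected material is what stayed on a cell strainer once the minced tissue had been digested, treated with Dispase II and EDTA and freed of red blood cells, and its source is given as spleen glia. The labels repeat that protocol for whole spleen and do not say how whole spleen was prepared. Nothing in them says that each number is 1 animal, so p-values measure the spread between these samples.

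IGF1 and IGF2 are secreted growth factors that act through the tyrosine kinase receptor encoded by *Igf1r*, while the receptor encoded by *Igf2r* takes up IGF2 and carries it to lysosomes without a kinase of its own. Most IGF outside cells is held by binding proteins, which prolong its life, limit its access to the receptor, or release it when proteases cut them. Macrophages are a known source of IGF1, and IGFBP7 is known from the walls of blood vessels.

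Library totals ranged from 13119992 to 19944440 estimated counts in the size-selected samples and from 12153770 to 16282454 in whole spleen. All 10 members passed the count filter, among 14510 genes tested. *Igf2*, *Igfbp2*, *Igfbp3*, *Igfbp5* and *Igfbp6* passed through the size-selected samples alone, which fixed the direction in which these 5 could differ. Markers of several cell types differed between the groups together with the family. The summed level of 10 glial markers was 73.3 to 625 CPM (reads per gene, scaled to library size) in the size-selected samples and 0.622 to 6.28 CPM in whole spleen, and all 8 markers tested passed as higher there. The same held for 7 of 7 fibroblast markers (1016 to 3610 against 4.67 to 57.7 CPM), 7 of 7 of smooth muscle and pericytes (847 to 3931 against 8.88 to 74.5 CPM), 7 of 7 of endothelium (555 to 1468 against 77.0 to 179 CPM) and 7 of 7 of mesothelium (30.4 to 263 against 1.60 to 5.79 CPM). For macrophages 4 of 7 markers were called higher (3208 to 7286 against 1693 to 3005 CPM), while 5 of 6 T cell, 5 of 6 B cell and 5 of 6 neutrophil markers were called lower. Megakaryocyte markers were called higher for 6 of 6 (92.3 to 627 against 51.5 to 189 CPM, overlapping), and of 6 erythroid markers 1 was called lower. No marker of these lists was at 0 in every sample of a group. Whole spleen sample 427 had the highest sum of the 8 whole spleen samples for the glial, fibroblast, smooth muscle, endothelial, mesothelial, macrophage and erythroid lists. The part of these cell types in the results below was not tested. In these bulk samples a transcript can be low because fewer cells of a type are present or because each holds less RNA, and the measurements cannot tell these apart. In all 8 size-selected columns, and in no whole spleen column, the deposited values of 3898 genes were found to be estimated counts multiplied by constants. *Igf1r*, *Igfbp4*, *Igfbp5* and *Igfbp7* are among them, and their values with the constants divided out are called restored below.

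Of the 10 members, 9 were called higher after size selection and 0 lower (edgeR quasi-likelihood test, Benjamini-Hochberg adjusted p under 0.05). Over all genes tested, 67.9% were called in either direction, 37.5% higher and 30.4% lower. The members' log2 fold changes, size-selected over whole spleen, had a median of 5.12, beside 0.05 over all genes tested. For 9 members the size-selected sample was the higher one in all 8 numbers, which was so for 31.4% of all genes. For 7 members every size-selected sample lay above every whole spleen sample, which was so for 23.4% of all genes. A call together with a log2 fold of 4 or more was found for 6 members and for 8.15% of all genes. Among these 6 are *Igf2*, *Igfbp2*, *Igfbp3*, *Igfbp5* and *Igfbp6*, for which only a rise could be called. Because the members were also chosen with earlier results of these data known, these shares are a description and no test of the family. Ranked by log2 fold change among the 14510 genes, *Igfbp3* stood at 170, *Igfbp2* at 188, *Igfbp5* at 221, *Igf2* at 411, *Igfbp6* at 448, *Igfbp7* at 974, *Igfbp4* at 1727, *Igf1* at 3373, *Igf1r* at 4153 and *Igf2r* at 5862. The binding proteins and *Igf2* thus ranked ahead of *Igf1* and the receptors.

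**Figure D1:**
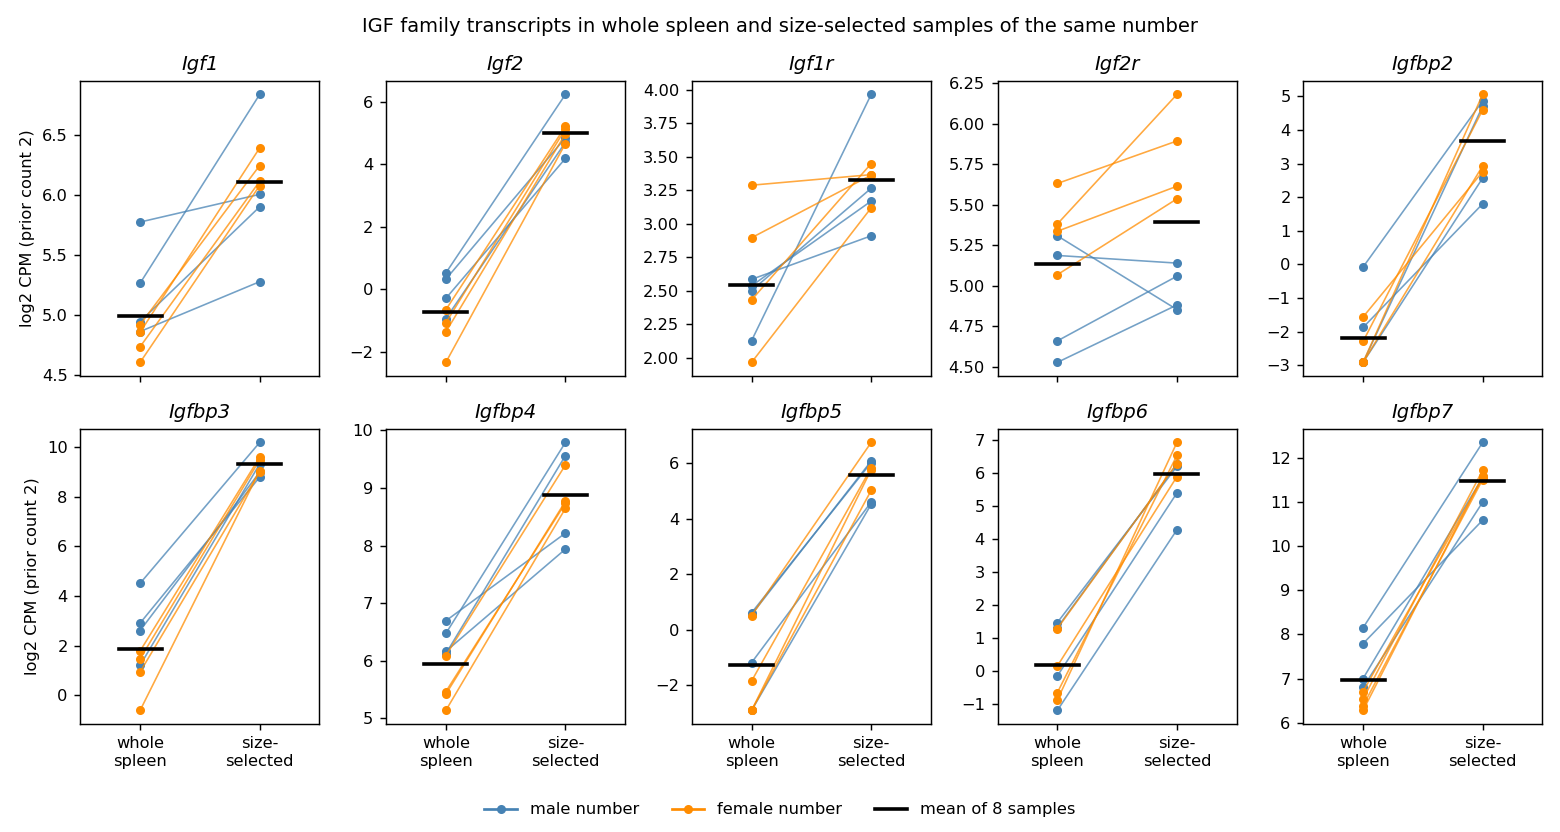
Level of each member in log2 CPM (vertical axis, prior count 2, a scale of its own in each panel) in whole spleen and size-selected samples, with a line joining samples of the same number, male numbers in blue and female numbers in orange, and a black bar at the mean of 8 samples. The lines climb in all 8 numbers for 9 members, and for *Igf2r* in 6 of 8.

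Both ligand genes were higher in the size-selected samples, *Igf2* from a level near the limit of detection and *Igf1* from a moderate one. *Igf1* (ENSMUSG00000020053, chromosome 10, 87858265 to 87937042, plus strand, GENCODE M21 on GRCm38) ranged in whole spleen from 24.2 through a median of 29.5 to 54.6 CPM, and in the size-selected samples from 38.6 through 68.3 to 114 CPM. Whole spleen 435 was the highest of its group and lay above size-selected 408, so the groups overlapped, and size-selected 427 was the highest of all. The means were 32.7 ± 9.73 and 71.6 ± 21.7 CPM (SD, n = 8 each), a 2.19-fold rise (log2 fold change 1.13, SE 0.19, edgeR adjusted p 4.01e-05), and *Igf1* was higher in 8 of 8 numbers. Among the 4 male numbers alone the log2 fold change was 0.79 and its edgeR adjusted p 0.0719, so the call did not hold there, and among the 4 female numbers it was 1.43 (adjusted p 1.20e-06).

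*Igf2* (ENSMUSG00000048583, chromosome 7, 142650766 to 142666816, minus strand), a growth factor best known from the fetus and from imprinting, held only 63 counts over all 8 whole spleen samples. Its whole spleen values ran from 0.0653 through a median of 0.446 to 1.31 CPM, with 427 and 435 on top, and its size-selected values from 18.1 through 30.1 to 75.4 CPM, with 427 far above the other 7. No samples overlapped. The mean rose from 0.584 ± 0.431 to 34.6 ± 17.5 CPM (SD, n = 8 each), or 5.90 on the log2 scale (SE 0.40, edgeR adjusted p 6.86e-10), and *Igf2* was higher in 8 of 8 numbers. The log2 fold change was 5.32 in males only and 6.76 in females only. Its exons overlap those of *Gm49394* on the same strand and of *Igf2os*, an antisense gene, so how reads were divided among these genes is uncertain.

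The ratio of the ligands differed between the groups. Per kb of exon, *Igf1* stood 38.0 times above *Igf2* in the median whole spleen sample, with a range from 16.9 to 214, and 1.27 times in the median size-selected sample, with a range from 0.876 to 1.54. *Igf2* made up 2.78 ± 1.60% of the summed ligand level in whole spleen and 44.5 ± 4.59% in the size-selected samples (SD, n = 8 each). Size-selected 427 was the only sample of the 16 in which *Igf2* exceeded *Igf1* on this scale. These levels hang on the length used for *Igf2*, here an exon union of 5723 bases. In the authors' deposited table, whose TPM (transcripts scaled to gene length and library size) rest on the authors' lengths, *Igfbp7* stands 82.3 times above *Igf2* in the size-selected group, against 412 times per kb of exon union. *Igf1* is not in that table. With *Igf2* alone raised by the resulting factor of 5.01 (an alternative chosen after seeing the data), it made up 12.2 ± 6.41% of the ligand level in whole spleen and 79.9 ± 2.87% in the size-selected samples (SD, n = 8 each). It then exceeded *Igf1* in 8 of 8 size-selected samples, so the order of the ligands there depends on the length. *Igf1* stayed on its exon union, since its level on the authors' length scale is not known here, so these shares mix length scales. The change of the *Igf1* to *Igf2* ratio between the groups does not depend on a length held fixed over samples.

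Of the receptors, *Igf1r* rose by less than 1 log2 unit and *Igf2r* did not pass the test. *Igf1r* (ENSMUSG00000005533, chromosome 7, 67952827 to 68233668, plus strand), the kinase receptor that signals for both ligands, ranged from 3.78 through a median of 5.61 to 9.63 CPM in whole spleen and from 7.39 through 9.82 to 15.5 CPM in the size-selected samples. The groups overlapped through whole spleen 436, and size-selected 427 stood above the other 7. The means were 5.92 ± 1.84 and 10.1 ± 2.42 CPM (SD, n = 8 each), a 1.71-fold rise (log2 fold change 0.77, SE 0.19, edgeR adjusted p 0.00174), with 8 of 8 numbers higher. The smallest difference of a number was 0.08 log2 units (436) and the largest 1.83 (427). *Igf1r* carries a constant, and on restored counts its log2 fold change was 1.01 (adjusted p 1.24e-04). Among female numbers alone it was 0.60 and missed the threshold (edgeR adjusted p 0.0703).

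*Igf2r* (ENSMUSG00000023830, chromosome 17, 12682406 to 12769664, minus strand), the IGF2 and mannose 6-phosphate receptor that clears IGF2, was the member with no call. It ranged from 22.9 through a median of 37.9 to 49.5 CPM in whole spleen and from 28.8 through 40.7 to 72.5 CPM in the size-selected samples, and the groups overlapped widely. The means were 36.1 ± 8.77 and 44.2 ± 15.7 CPM (SD, n = 8 each), and the log2 fold change was 0.29 (SE 0.20, edgeR adjusted p 0.202). It was higher in 6 of 8 numbers and lower in 407 and 408. The sign differed between fits of 1 sex: the log2 fold change was -0.04 among male numbers (adjusted p 0.895) and 0.45 among female numbers (adjusted p 0.0297), although the test of that difference gave an unadjusted p of 0.127 (edgeR interaction, adjusted p 1.00). Per kb of exon, *Igf2r* stood above *Igf1r* in all 16 samples, 10.7 times in the median whole spleen sample and 7.68 times in the median size-selected one. On restored counts the median size-selected ratio was 6.48, with *Igf2r* still above in 8 of 8 samples.

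**Figure D2:**
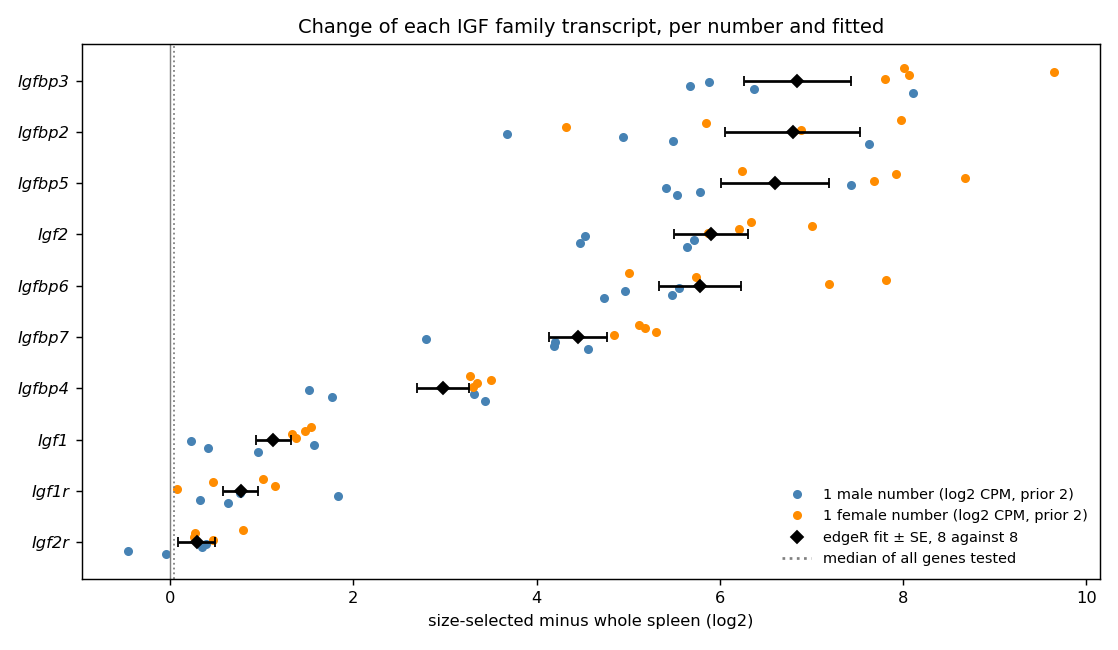
Size-selected minus whole spleen on the log2 scale (horizontal axis) for each member, with 1 dot per number (log2 CPM, prior count 2) in blue for male and orange for female numbers, a diamond with bars for the edgeR log2 fold change ± SE, and a dotted line at the median of all genes tested, 0.05. The binding proteins and *Igf2* lie to the right, from 2.98 to 6.85, and *Igf2r*, at 0.29, lies nearest to 0.

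All 6 binding proteins were called higher. To show how their promoters differ in letters, the 120 bases before the first RefSeq start listed for each (GRCm38.p6) are given in the direction of the gene. The counts do not measure where transcription starts. Capitals mark the letters of a TATA box (TATAAA), of a GC box (GGGCGG) and of a CCAAT box (CCAAT), searched on both strands and reported where they match exactly.
Igfbp2: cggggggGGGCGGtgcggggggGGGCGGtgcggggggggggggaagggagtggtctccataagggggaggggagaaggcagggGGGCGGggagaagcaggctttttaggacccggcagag
Igfbp5: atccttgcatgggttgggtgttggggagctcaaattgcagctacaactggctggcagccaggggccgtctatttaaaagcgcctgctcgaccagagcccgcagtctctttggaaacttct
Igfbp3: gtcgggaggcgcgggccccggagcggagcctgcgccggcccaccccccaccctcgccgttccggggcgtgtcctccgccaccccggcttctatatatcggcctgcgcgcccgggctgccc
Igfbp7: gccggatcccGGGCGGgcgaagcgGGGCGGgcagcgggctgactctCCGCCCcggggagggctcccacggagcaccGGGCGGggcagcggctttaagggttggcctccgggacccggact
Igfbp4: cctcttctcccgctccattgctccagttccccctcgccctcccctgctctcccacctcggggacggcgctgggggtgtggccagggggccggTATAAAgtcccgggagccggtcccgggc
Igfbp6: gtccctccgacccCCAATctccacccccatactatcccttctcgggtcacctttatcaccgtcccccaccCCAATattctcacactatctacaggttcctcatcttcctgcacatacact
These stretches are chr1:72824360-72824479 (plus strand), chr1:72874866-72874985 (minus), chr11:7213924-7214043 (minus), chr5:77408046-77408165 (minus), chr11:99041124-99041243 (plus) and chr15:102144066-102144185 (plus). Of 32851 RefSeq promoter windows, the 250 bases before the start held the TATA box letters in 12.4%, the GC box letters in 32.7% and the CCAAT box letters in 33.8%. In these windows *Igfbp7* held the GC box letters 4 times and *Igfbp2* 3 times, *Igfbp4* held the TATA box letters once, beginning 28 bases before the start, and *Igfbp3* and *Igfbp5* held none of the 3. *Igfbp6* held the CCAAT box letters 2 times and, ahead of the printed bases, the TATA box letters 148 bases before the start. The count of CG in the 250 bases was 32 for *Igfbp3*, 26 for *Igfbp7*, 22 for *Igfbp4*, 14 for *Igfbp2*, 10 for *Igfbp5* and 7 for *Igfbp6*, beside a median of 6 over all windows. A match or its absence describes these letters only.

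*Igfbp7* and *Igfbp3* were the most abundant members per length in the size-selected samples. *Igfbp7* (ENSMUSG00000036256, chromosome 5, 77349240 to 77408041, minus strand) encodes a secreted protein that binds IGFs weakly and is known from vessel walls. Its whole spleen values ran from 77.4 through a median of 108 to 284 CPM, with 427 and 435 highest, and its size-selected values from 1538 through 3000 to 5210 CPM, with 435 lowest and 427 highest. No samples overlapped, and the mean rose 21.9-fold, from 138 ± 74.5 to 3017 ± 1075 CPM (SD, n = 8 each). The log2 fold change was 4.45 (SE 0.32, edgeR adjusted p 1.07e-09) and 4.53 on restored counts, with 8 of 8 numbers higher. It was 3.91 in males only and 5.10 in females only. By mean CPM, *Igfbp7* ranked 18 among all genes in the size-selected samples and 1372 in whole spleen. Its exons overlap those of *Polr2b* on the opposite strand, which makes part of its reads uncertain if strand was not used.

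*Igfbp3* (ENSMUSG00000020427, chromosome 11, 7206086 to 7213923, minus strand) encodes the main carrier of IGFs in blood. It ranged from 0.522 through a median of 2.97 to 22.6 CPM in whole spleen and from 441 through 580 to 1159 CPM in the size-selected samples. Number 427 was the highest in both groups, and the lowest size-selected sample lay far above the highest whole spleen one. The means were 5.79 ± 7.15 and 658 ± 232 CPM (SD, n = 8 each), a 115-fold rise (log2 fold change 6.85, SE 0.58, edgeR adjusted p 8.59e-09), with 8 of 8 numbers higher. The size of this rise moved with whole spleen 427. The log2 fold change was 7.60 without that sample (an alternative chosen after seeing the data), 7.44 without both samples of the number, and 7.30 with the number as a block. It was 7.57 with limma-voom, 6.10 in males only and 8.25 in females only.

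*Igfbp4* (ENSMUSG00000017493, chromosome 11, 99041244 to 99054392, plus strand), whose protein holds IGFs until the protease PAPP-A cuts it, was already well detected in whole spleen. It ranged there from 35.1 through a median of 68.7 to 103 CPM, and in the size-selected samples from 245 through 431 to 885 CPM, without overlap. The mean rose from 65.3 ± 23.7 to 515 ± 229 CPM (SD, n = 8 each), 7.88-fold (log2 fold change 2.98, SE 0.29, edgeR adjusted p 3.76e-08). Size-selected 408 and 435 were the lowest of their group, and their differences from whole spleen, 1.77 and 1.52 log2 units, were the smallest of the 8 numbers, the others lying between 3.27 and 3.51. *Igfbp4* carries 2 constants, whose product was 0.684 to 0.799 over the samples, and on restored counts its log2 fold change was 3.35.

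*Igfbp2* and *Igfbp5* had few counts in whole spleen. *Igfbp2* (ENSMUSG00000039323, chromosome 1, 72824503 to 72852474, plus strand), a carrier known from serum and from stromal cells, had 0 counts in 4 whole spleen samples and 16 counts over all 8, of which 10 came from 427. It reached 0.816 CPM in 427 and at most 0.206 CPM in the other whole spleen samples, against 3.36 through 15.8 to 33.3 CPM in the size-selected samples. The log2 fold change was 6.79 (SE 0.74, edgeR adjusted p 1.79e-07), and 7.95 without whole spleen 427. It was 5.99 in males only and 7.89 in females only. The size-selected samples lay in separate ranges: 24.1 CPM in 436, 26.1 in 407, 29.1 in 427 and 33.3 in 460, but 3.36 in 435, 5.81 in 408, 6.65 in 445 and 7.52 in 447. Each range holds both sexes, and every size-selected sample lay above every whole spleen sample.

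*Igfbp5* (ENSMUSG00000026185, chromosome 1, 72857932 to 72874884, minus strand), whose protein also binds to extracellular matrix, had 0 counts in 3 whole spleen samples and 60 counts over all 8. It ranged up to 1.39 CPM in whole spleen, with a median of 0.224, and from 22.7 through 55.2 to 107 CPM in the size-selected samples. Whole spleen 407, 427 and 460 stood above 1 CPM and the others below 0.31 CPM, and no samples overlapped between the groups. The log2 fold change was 6.60 (SE 0.59, edgeR adjusted p 1.52e-08) and 6.69 on restored counts. It was 7.73 with limma-voom, 5.84 in males only and 7.37 in females only. *Igfbp5* and *Igfbp2* are neighbours on chromosome 1, end to end with 5457 bp and no annotated gene between them. In the size-selected samples both were highest in 460 and lowest in 435.

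*Igfbp6* (ENSMUSG00000023046, chromosome 15, 102144362 to 102149511, plus strand), whose protein prefers IGF2 over IGF1, ranged from 0.305 through a median of 0.875 to 2.64 CPM in whole spleen and from 19.4 through 75.8 to 122 CPM in the size-selected samples. Size-selected 408 was the lowest of its group, still above every whole spleen sample. The mean rose from 1.29 ± 0.983 to 70.8 ± 31.3 CPM (SD, n = 8 each), or 5.78 on the log2 scale (SE 0.45, edgeR adjusted p 2.65e-09), and 8 of 8 numbers were higher. The log2 fold change was 5.07 in males only and 6.35 in females only. *Igfbp6* had counts in every whole spleen sample, 142 in all.

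The order of the members by level per length was partly the same in both groups. Per kb of exon, *Igfbp7* led the size-selected samples with a mean of 2496 CPM per kb, followed by *Igfbp3* at 210, *Igfbp4* at 117 and *Igfbp6* at 63.7. Next came *Igfbp2* at 9.20, *Igfbp5* at 8.91, *Igf1* at 7.23, *Igf2* at 6.05, *Igf2r* at 4.75 and *Igf1r* at 0.602 CPM per kb. Neighbours in this order overlapped in their ranges over samples, except that *Igfbp7* lay above *Igfbp3* and *Igf2r* above *Igf1r* without overlap. *Igfbp2* exceeded *Igfbp5* in 4 of 8 samples (3 of 8 on restored counts) and *Igf2* exceeded *Igf2r* in 5 of 8, so these neighbours did not differ beyond their spread. The longest transcript in place of the exon union as the length put *Igf1*, at 10.2, above *Igfbp5*, at 8.91 CPM per kb. The place of *Igf2* also depends on its length. In the authors' deposited table its size-selected mean of 54.7 TPM stands above *Igfbp2* at 19.6 and *Igfbp5* at 12.01 TPM, the reverse of the order per kb.

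In whole spleen *Igfbp7* also led, with a mean of 114 CPM per kb, and *Igfbp4* followed at 14.8, each above the next without overlap. *Igf2r* came next at 3.88 and *Igf1* at 3.31, ahead of *Igfbp3* at 1.85, *Igfbp6* at 1.16 and *Igf1r* at 0.352 CPM per kb. With the longest transcript as the length, *Igf1*, at 4.64, stood above *Igf2r*, at 4.06 CPM per kb. *Igf2*, *Igfbp5* and *Igfbp2* were last, at 0.102, 0.0925 and 0.0835 CPM per kb, and overlapped. The whole spleen means of these 3 in the authors' deposited table are 0.648, 0.0938 and 0.158 TPM. *Igfbp3* and *Igfbp4* thus changed places, with *Igfbp3* below *Igfbp4* in 8 of 8 whole spleen samples and above it in 8 of 8 size-selected samples as deposited. On restored counts it was above in 7 of 8, since in size-selected 407 *Igfbp3* stood at 0.949 times *Igfbp4*.

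**Figure D3:**
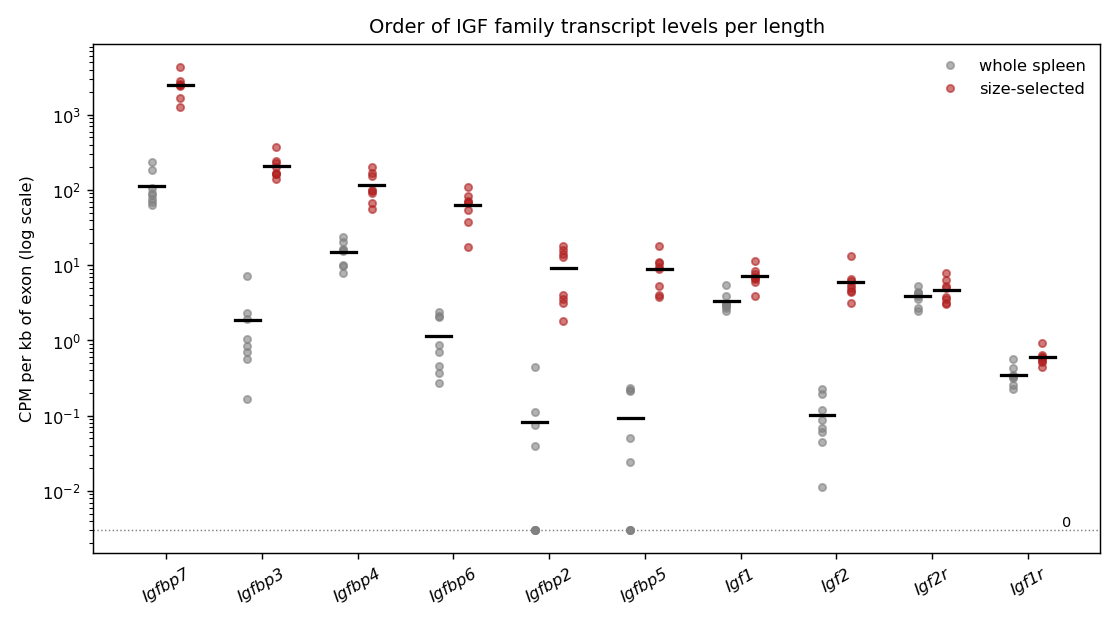
Level per length (vertical axis, CPM per kb of exon, log scale) of each member in 8 whole spleen samples (grey) and 8 size-selected samples (red), with a black bar at the mean and samples at 0 placed on the dotted line. *Igfbp7* is the highest in both groups, and the means of the groups lie farthest apart on this scale for *Igfbp2*, *Igfbp3*, *Igfbp5*, *Igf2* and *Igfbp6*.

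As a share of the summed binding protein level per length, *Igfbp7* held 85.9 ± 2.37% in whole spleen and 85.8 ± 2.26% in the size-selected samples (SD, n = 8 each). The remainder was divided differently. *Igfbp4* held 11.9 ± 2.52% in whole spleen and 3.99 ± 1.06% in the size-selected samples, while *Igfbp3* held 1.14 ± 0.779% and 7.40 ± 1.36% (SD, n = 8 each). *Igfbp6* held 0.973 ± 0.827% and 2.23 ± 0.888% (SD, n = 8 each). The summed binding protein level was 36.6 times the summed ligand level in the median whole spleen sample, with a range from 24.1 to 64.7, and 217 times in the median size-selected sample, with a range from 132 to 280. On restored counts the size-selected ratio ran from 144 through a median of 243 to 301. These ranges did not overlap with exon union lengths, and they compare transcripts, not proteins. The binding protein sum is mostly *Igfbp7*, whose protein binds IGFs weakly, so these ratios largely follow that gene. With *Igf2* raised by the factor of 5.01, the median ratios were 32.7 and 77.7, and the groups overlapped, since whole spleen 427 stood at 52.9 and size-selected 435 at 48.1.

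Sex was compared within each group. In whole spleen 7 members passed the filter, and edgeR called 0 of them between females and males at an adjusted p under 0.05, beside 0.194% of all genes called. At an unadjusted p under 0.05, 5 of the 7 differed, beside 16.1% of all genes. *Igfbp7* averaged 89.4 ± 11.7 CPM in the 4 females against 186 ± 81.2 CPM in the 4 males (SD) with no overlap, a female minus male log2 difference of -1.07 (SE 0.25, edgeR adjusted p 0.0909). *Igfbp4* averaged 47.4 ± 14.2 CPM in the 4 females against 83.3 ± 15.9 CPM in the 4 males (SD), also with no overlap, a log2 difference of -0.82 (SE 0.20, edgeR adjusted p 0.0956). DESeq2 called both, with adjusted p of 0.00150 and 0.00499, and called 3.87% of all genes. *Igfbp3* had a log2 difference of -2.22 (edgeR adjusted p 0.140), which was -1.33 without number 427.

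In the size-selected samples all 10 members were tested for sex and edgeR called 0, beside 0.0397% of all genes. At an unadjusted p under 0.05 there was 1, *Igf2r*, beside 4.18% of all genes. It ranged from 46.3 to 72.5 CPM in the 4 females and from 28.8 to 35.1 CPM in the 4 males, so the sexes did not overlap. The female minus male log2 difference was 0.81 (SE 0.17), with an unadjusted edgeR p of 0.000762 and an adjusted p of 0.741, and DESeq2, which called 0.145% of all genes, gave an adjusted p of 0.0211. The interaction of sex and fraction was called for 0 members and for 0.0% of 15760 genes by edgeR. Its unadjusted p was under 0.05 for *Igfbp3* (2.08 log2 units more in females, SE 0.76, unadjusted edgeR p 0.0142) and *Igfbp7* (1.12 more, SE 0.45, unadjusted edgeR p 0.0241). Both had an adjusted p of 1.00, and 4.72% of all genes had an unadjusted p under 0.05.

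The size-selected samples differed among themselves in how much of the family they held. Size-selected 427 had the highest *Igf1*, *Igf2*, *Igf1r*, *Igfbp3*, *Igfbp4* and *Igfbp7*, and 408 or 435 had the lowest value of each of the 10 members. The spread was widest for *Igfbp2*, whose highest sample held 9.90 times its lowest, and narrowest for *Igf1r*, at 2.10 times. Over the 45 pairs of members, no Pearson or Spearman correlation of log2 CPM across the 8 samples reached an adjusted p under 0.05 (exact two-sided permutation tests, Benjamini-Hochberg over 45 pairs). Pearson's r was positive for 41 of the 45, with a median of 0.66. The smallest p was that of the neighbours *Igfbp2* and *Igfbp5*, with Pearson's r = 0.89 (exact permutation p = 0.00149, adjusted 0.0670) and Spearman's rho = 0.95 (exact permutation p = 0.00114, adjusted 0.0513). Without 435 and 460, the samples farthest from the median of *Igfbp2*, r was 0.80. *Igfbp2* and *Igfbp3* followed with r = 0.84 (exact permutation p = 0.00511, adjusted 0.0910) and rho = 0.88 (exact permutation p = 0.00724, adjusted 0.163), and r was 0.83 without the same samples. For *Igf1* and *Igf2*, Pearson's r was 0.91 (exact permutation p = 0.00799, adjusted 0.0910) and Spearman's rho 0.83 (exact permutation p = 0.0154, adjusted 0.207). Without 408 and 427, the samples farthest from the median of *Igf1*, r was 0.54, so this relation rests on those samples.

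**Figure D4:**
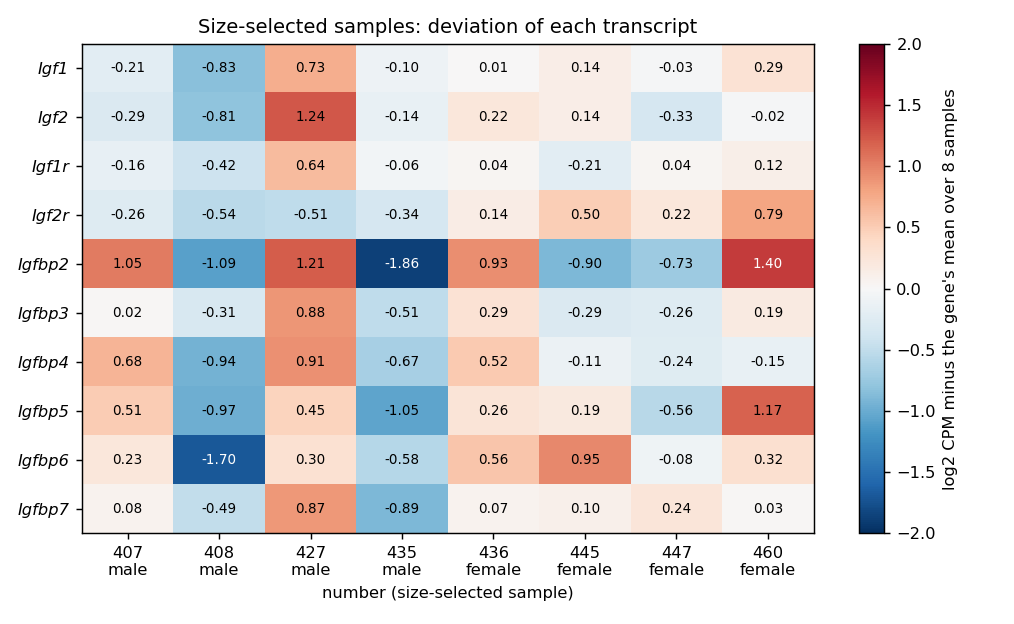
Deviation of each member (rows) in each size-selected sample (columns, by number and sex) from that gene's mean over the 8 samples, in log2 CPM, with red above and blue below the mean. The column of 427 is red except at *Igf2r* (-0.51), the column of 408 is blue throughout, and *Igfbp2* shows the largest deviations, from -1.86 in 435 to 1.40 in 460.

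The members were set against markers of cell types across the size-selected samples. Of 60 relations between a member and the summed markers of 6 cell types, 2 reached an adjusted p under 0.05 by Pearson's r and 0 by Spearman's rho (exact two-sided permutation tests, Benjamini-Hochberg over 60). *Igf1* and the macrophage sum had r = 0.88 (exact permutation p = 0.000769, adjusted 0.0417) and rho = 0.90 (exact permutation p = 0.00456, adjusted 0.0913), and r was 0.86 without 408 and 427. *Igf1r* and the macrophage sum had r = 0.85 (exact permutation p = 0.00139, adjusted 0.0417) and rho = 0.79 (exact permutation p = 0.0279, adjusted 0.120), and r was 0.71 without the same samples. *Igf1r* and the endothelial sum had r = 0.81 (exact permutation p = 0.0165, adjusted 0.0694) and rho = 0.88 (exact permutation p = 0.00724, adjusted 0.0918). Without 427 and 408 that r was 0.45. No relation passed beyond the 2 with the macrophage sum. Of the 60 values of r, 58 were positive, with a median of 0.67. Before adjustment, 26 of the 60 had an exact permutation p under 0.05 for r. Positive r was thus common to most members and lists, and it does not set the named pairs apart. The next 7 by Pearson's r each had an adjusted p of 0.0589, and they joined binding proteins and *Igf1* to stromal and vascular sums. *Igfbp3* and the fibroblast sum had r = 0.87 (exact permutation p = 0.00325) and rho = 0.93 (exact permutation p = 0.00223, adjusted 0.0913). *Igfbp5* and the smooth muscle sum had r = 0.88 (exact permutation p = 0.00427) and rho = 0.86 (exact permutation p = 0.0107, adjusted 0.0918). Without the 2 samples farthest from the gene's median these r were 0.85 and 0.84. *Igfbp4* had r = 0.85 with the fibroblast sum (exact permutation p = 0.00848) and 0.84 with the smooth muscle sum (exact permutation p = 0.00883), with rho = 0.83 for both (exact permutation p = 0.0154, adjusted 0.103). Without 427 and 408 these r were 0.72 and 0.63. *Igfbp7* and the endothelial sum had r = 0.87 (exact permutation p = 0.00645), which was 0.93 without 435 and 427, and rho = 0.62 (exact permutation p = 0.115, adjusted 0.246). *Igf1* had r = 0.89 with the endothelial sum (exact permutation p = 0.00503; rho = 0.86, exact p = 0.0107, adjusted 0.0918) and 0.84 with the smooth muscle sum (exact permutation p = 0.00796; rho = 0.71, exact p = 0.0576, adjusted 0.157). These r were 0.49 and 0.39 without 408 and 427, so they rest on those samples. Whether these relations differed in strength between marker lists was not tested. Each sex holds 4 samples, too few to repeat these within a sex. For the glial sum, r ranged from -0.19 with *Igf2r* to 0.44 with *Igf2* over the 10 members.

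For each member, the gene outside the family whose log2 CPM followed it most closely over the 8 size-selected samples was sought among 10094 genes. These were *Lipa* for *Igf1* (r = 0.98), *Heph* for *Igf2* (r = 0.99), *Anks1* for *Igf1r* (r = 0.99), *Abhd2* for *Igf2r* (r = 0.97), *Plpp3* for *Igfbp3* (r = 0.98), *Fkbp10* for *Igfbp4* (r = 0.99), *Dysf* for *Igfbp5* (r = 0.97), *Arl5a* for *Igfbp6* (r = 0.98) and *Arfgap3* for *Igfbp7* (r = 0.99). The next closest were *Gdpd1*, *Mtus1*, *Wwp1*, *Pogk*, *Dstyk*, *Gstm2*, *Des*, *Stam* and *Cebpa*, in the same order. *Smtn* and *Ror1* were closest to *Igfbp2*, whose values lay in separate ranges. Such maxima over many genes in 8 libraries that share their scaling are a description.

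The rest of the IGF pathway was followed in a list of 47 genes. Of these, 38 passed the count filter, 20 were called higher, 11 lower and 7 not called, with a median log2 fold change of 0.35. Among all genes tested 37.5% were called higher and 30.4% lower. *Igfbp1*, *Igfals*, *Igfbpl1*, *Pappa2*, *Adam12*, *Insrr*, *Irs4*, *H19* and *Igf2bp1* were below the filter. The size-selected samples alone carried 6 of the 38 through it, *Pappa*, *Stc2*, *Irs1*, *Grb14*, *Ghr* and *Igf2bp2*, and whole spleen alone carried *Foxo4*. Constants multiply 11 of the 38, among them *Htra1*, *Stc1*, *Insr*, *Shc1*, *Akt1*, *Akt2* and *Stat5a*.

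Of 6 listed genes for proteases that cut binding proteins and for their inhibitors, 4 passed the count filter. *Pappa* and *Stc2* did so through the size-selected samples alone, so only a rise could be called for them. *Pappa*, the protease that frees IGF from IGFBP4, had 0 counts in all 8 whole spleen samples and 4.24 ± 1.90 CPM in the size-selected samples (SD, n = 8), with at least 34 counts in each. Against a floor of 3 counts per library it was at least 19.7-fold higher (edgeR adjusted p 1.01e-07). *Stc2*, an inhibitor of that protease, rose from 0.0734 ± 0.129 to 7.86 ± 3.48 CPM (SD, n = 8 each), or 6.62 on the log2 scale (SE 0.52, edgeR adjusted p 3.22e-09). *Stc2* had 8 counts over all 8 whole spleen samples, and its log2 fold change was 7.73 without number 408. The related inhibitor *Stc1* and the serine protease gene *Htra1* were called higher with log2 fold changes of 4.57 and 4.93 (4.81 and 5.30 on restored counts), and all 4 genes were higher in 8 of 8 numbers without overlap.

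Upstream, the growth hormone receptor gene *Ghr* rose from 0.182 ± 0.133 to 19.2 ± 7.96 CPM (SD, n = 8 each), or 6.68 on the log2 scale (SE 0.42, edgeR adjusted p 3.37e-10). *Socs2* and *Cish*, inhibitors that growth hormone signalling induces, were called higher at 2.45 and 1.17, *Stat5a*, a transcription factor of that pathway, was called lower at -0.93 (-0.67 on restored counts), and *Jak2* and *Stat5b* were not called. Downstream of the receptor, 5 of 8 tested adaptors were called higher: *Grb14* (5.78), *Grb10* (4.47), *Gab1* (3.33), *Irs1* (3.10) and *Shc1* (0.31). *Irs2* (-0.60) and *Grb2* (-0.50) were called lower. Over all genes tested, 37.5% were called higher and 30.4% lower. *Ghr*, *Grb14* and *Irs1* passed the count filter through the size-selected samples alone, so only a rise could be called for them. *Grb14* was at 6.55 without whole spleen 427 (an alternative chosen after seeing the data), and *Irs1* at 4.28 without number 407. In males and females only, *Grb14* was at 4.99 and 6.62 and *Irs1* at 2.28 and 4.34. In males only, *Irs1* and *Shc1* lost their calls (edgeR adjusted p 0.0636 and 0.0820), and *Shc1* did so in females only too (0.116). *Grb14* and *Grb10*, which encode adaptors that restrain insulin and IGF receptors, rose from 0.115 ± 0.171 and 2.21 ± 0.659 CPM to 6.45 ± 3.81 and 49.1 ± 16.7 CPM (SD, n = 8 each).

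From PI3K to FOXO, 6 of 16 genes (37.5%) were called higher and 7 (43.8%) lower, beside 37.5% and 30.4% of all genes tested. The share called higher was thus that of all genes. The median log2 fold change of the 16 was 0.01. The transcription factor genes *Foxo4*, *Foxo3* and *Foxo1*, whose proteins AKT holds out of the nucleus, were called lower at -1.20 (SE 0.34), -1.08 (SE 0.16) and -0.89 (SE 0.16). *Foxo4* passed the count filter through whole spleen alone, so only a fall could be called for it. In males only, *Foxo4* was at -0.90 (edgeR adjusted p 0.195) and *Stat5a* at -0.73 (0.130), without a call. *Akt1* was called higher at 0.58 and *Akt2* lower at -0.63, and on restored counts they were at 0.96 and -0.26 (edgeR adjusted p 3.26e-07 and 0.0108). The insulin receptor gene *Insr* was called higher at 0.49 (edgeR adjusted p 0.0151, and 0.283 in males only) and was at 0.74 on restored counts. Among genes for proteins that bind *Igf2* mRNA, *Igf2bp2* was called higher at 2.44 (3.10 without number 445) and *Igf2bp3* lower at -0.96 (edgeR adjusted p 0.0171, 0.0776 without number 445 and 0.266 in males only). *Igf2bp2* passed the count filter through the size-selected samples alone, so only a rise could be called for it. T, B and neutrophil markers, called lower for 5 of 6 in each list, moved in the direction of the genes called lower here, and their part was not tested.

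**Figure D5:**
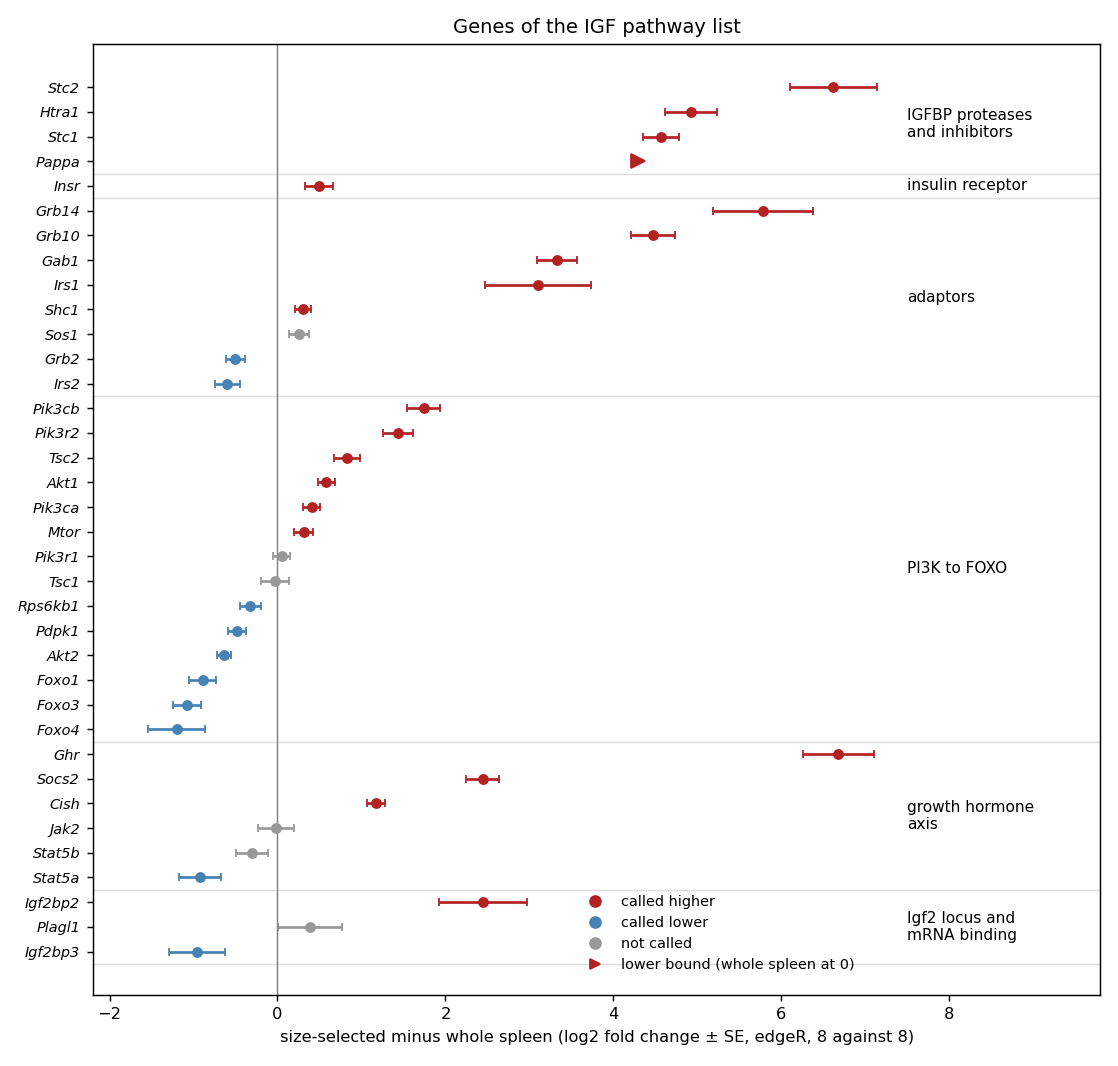
Log2 fold change of 36 of the 38 tested genes of the IGF pathway list (horizontal axis, size-selected over whole spleen, ± SE), grouped by role, in red where called higher, blue where called lower and grey where not called. The arrowhead marks *Pappa*, drawn at its lower bound of 4.30. The 4 tested proteases and inhibitors lie above 4, while the genes from PI3K to FOXO lie between -1.20 and 1.74.

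The authors' deposited table of 2201 genes higher in the size-selected group, whose log2 fold changes start at 3.50, includes 6 of the 10 members. In the authors' deposited table their log2 fold changes are 6.83 for *Igfbp3*, 6.68 for *Igfbp2*, 6.53 for *Igfbp5*, 6.11 for *Igf2*, 5.81 for *Igfbp6* and 4.47 for *Igfbp7*. The authors' deposited table gives *Igfbp7* a mean of 4502 TPM in the size-selected group and 147 TPM in whole spleen, and *Igfbp3* means of 358 and 2.52 TPM. *Igf1*, *Igf1r*, *Igf2r* and *Igfbp4*, whose log2 fold changes were 1.13, 0.77, 0.29 and 2.98 in the edgeR fit, lie below that limit.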

How the data were processed

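RNA was sequenced from 8 size-selected and 8 whole spleen samples. Per the submitters' processing notes, Trim Galore, STAR, RSEM and DESeq were used with the mm10 build; versions and annotation are not given in the sources used here. The deposited table holds the authors' estimated counts per gene and sample, which need not be whole. A second deposited table gives the authors' comparison: per the file headers, the mean signal (base mean), the log2 fold change and its error, the test score, raw and adjusted p-values, and mean TPM and FPKM per group. The authors' deposited FPKM values, scores and base means were not used here.

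The size-selected columns carry 3 constants each, found from the values alone, which multiply 3898 genes. Values as deposited were used, with restored counts as an alternative. Estimated counts were rounded for edgeR 4.0.16 (R 4.3.3; limma 3.58.1 and DESeq2 1.42.0 for alternatives), filtered with filterByExpr (minimum count 10), scaled by TMM and compared by quasi-likelihood F tests with the group as sole term, Benjamini-Hochberg over all genes tested. The fits were also run on simulated counts, with the outcome not reported here. CPM uses TMM-scaled totals, log2 CPM a prior count of 2, and levels per kb the exon union of GENCODE M21 (GRCm38), which held 54809 of 54838 identifiers. Promoters come from RefSeq GRCm38.p6. Protein sequences were not used here. Standard errors are the log2 fold change over the square root of F.

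Samples of 1 number pair: over 14510 genes, their deviations from the group means correlated at 0.120 to 0.375 in every pair (mean 0.208, against -0.0287 between numbers; across genes, which are not independent replicates). The number entered as a replicate block only as an alternative. The members and lists were chosen with earlier results of these data known. Named genes are the members, the 4 pathway genes that rose most and the 4 that fell most among those called with the same direction in at least 7 of 8 numbers, and the 2 genes most like each member. The other pathway genes with values were chosen after their values were seen. Single values of 2 pathway genes are not reported here, and the figure of the pathway list leaves them out.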

Additional observations from a re-analysis of the deposited data

Results flagged for a closer look

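Within groups of 4 to 8 samples, 70 sets of member values were screened for a highest or lowest sample that stands apart from the rest (Dixon's test at the 95% level), and 9 did. In independent sets of normally distributed values, chance would flag about 1 in 20, here 3.5. These sets share samples and some hold few counts, so the 9 flags cannot be read as an excess over 3.5. Number 427 accounts for 5 of the 9. In the size-selected samples it was the highest for *Igf2* (75.4 CPM, others 18.1 to 37.1), *Igf1r* (15.5 CPM, others 7.39 to 10.8) and *Igfbp3* (1159 CPM, others 441 to 769). In whole spleen it was the highest for *Igfbp3* (22.6 CPM, others 0.522 to 7.36) and *Igfbp2* (0.816 CPM, others 0 to 0.206). Whole spleen 435 stood apart for *Igf1* (54.6 CPM, others 24.2 to 38.3), and the size-selected minus whole spleen difference of *Igfbp7* was lowest in the same number (2.80 log2 units, others 4.19 to 5.31). Among females, size-selected 436 was the highest for *Igfbp4* (675 CPM, others 400 to 436) and whole spleen 460 for *Igfbp5* (1.28 CPM, others 0 to 0.144).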

How the results depend on the processing

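The count of 9 members called higher and 0 lower was the same under limma-voom, DESeq2, RLE scaling, other filters, library totals, sex as a covariate and restored counts, and without whole spleen 427 (chosen after seeing the data). Over 21 settings, 206 of 210 member log2 fold changes kept their direction and side of the threshold. The exceptions were *Igf1* in males only, *Igf1r* in females only, and *Igf2r*, called in females only and of opposite sign in males only (-0.0368); fits of 1 sex hold fewer samples. With the number as a replicate block, which pairs the samples, 9 members and 31 pathway genes (20 higher, 11 lower) were called, as without it, and no call of a member changed. Library totals moved the median log2 fold change of all genes tested by 0.127, from 0.0482 to 0.175, and no member changed its call. Of the 31 pathway genes called, 16 moved by 1 log2 unit or more, of which 2 were lower, and in males only 22 were called, 15 higher and 7 lower. On restored counts *Mtor* lost its call (adjusted p 0.0554). For sex in whole spleen the count of members called was 0 with edgeR, 3 with no count filter and 2 with DESeq2, and 0 to 1 when each number was left out. For sex in the size-selected samples DESeq2 called 1. With the longest transcript as the length, *Igfbp7* held 83.5% of the binding protein level in the size-selected samples, beside 85.8%. With *Igf2* on the authors' length scale (chosen after seeing the data), *Igf1* held 87.8% and 20.1% of the ligand level in whole spleen and size-selected samples, beside 97.2% and 55.5%, and the median ratio of binding proteins to ligands in the size-selected samples was 77.7, beside 217. For *Igfbp2* and *Igfbp5* in whole spleen, 16 and 60 counts over 8 samples limit the precision of the fold.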
